A study of Mus musculus with 6 samples.

Results

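The genes described here are the chaperones, disulfide isomerases, stress sensors, integrated stress targets and translocation proteins of the endoplasmic reticulum (ER). They were taken by gene symbol from a list of 36, and all 36 had a row among the 17213 genes of the deposited count table. They were measured in tdTomato+ cells, labelled PTHrP+, that were sorted from the dental follicle of mouse mandibular molars at postnatal day 8. The follicle is the sac of connective tissue that surrounds a tooth before eruption, and PTHrP is the secreted peptide ligand of the receptor Pth1r. Of the 6 libraries, 3 are labelled Het, genotype Pth1r(+/-), and 3 are labelled KO, genotype Pth1r(-/-), for a conditional allele. All 6 carried the reporter and received tamoxifen, which the series text places at day 3 and the sample descriptions at day 8. The driver of recombination is not given in the sources used here, and separate animals are named in no label, so the p-values reflect only how these libraries vary, which may be technical.

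The libraries held 34019925 to 66147200 counts. Pth1r itself went against the labels, with values of 371, 286 and 346 CPM under the label Het and 961, 608 and 472 CPM under the label KO (log2 fold change 1.02, SE 0.28, edgeR adjusted p = 0.740). CPM are counts scaled to a common library size by edgeR with its TMM factors, SE is a standard error, and counts over a whole gene do not show whether its deleted exons were transcribed. Higher and lower therefore refer to the labels alone, KO relative to Het, and Het and KO stand for the libraries so labelled. Pthlh, the gene of PTHrP, spanned 260 to 344 CPM in Het and 298 to 350 CPM in KO. The type I collagen gene Col1a1, a mesenchymal marker, was at 9738 to 41011 CPM. Het replicate 2 was the highest or the lowest library for more genes than any other. Role medians and the changes of some members, not of all that it moved, are also given without it.

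Secreted and membrane proteins enter the ER through the Sec61 channel, fold with the help of chaperones and disulfide isomerases, and are sent to the proteasome by ER-associated degradation if they fail to fold. Unfolded protein is sensed by 3 membrane proteins, encoded by Ern1 (IRE1), Eif2ak3 (PERK) and Atf6. Their outputs are the transcription factors XBP1, ATF4 and the cleaved form of ATF6, which raise transcription of the folding machinery and of amino acid metabolism. Cells that secrete collagen, such as those of the dental follicle and the bone around it, carry a heavy load of such client protein.

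No member passed the test between the groups. Of the 36 members, 35 had enough counts to be tested and 0 passed an adjusted p of 0.05 in edgeR's quasi-likelihood test, beside 0 of 14632 genes tested (0%). The smallest adjusted p of any member was 0.976. Unadjusted p was under 0.05 for 1 of the 35, Ppp1r15a, against 4.29% of all genes tested. DESeq2, run as an alternative, also called 0 members, against 0.519% of the genes to which it gave an adjusted p. The fitted change was higher for 19 members and lower for 16, with a median log2 fold change of 0.04 beside -0.01 over all genes tested. It ranged from -0.53 for Herpud1 to 0.69 for Ppp1r15a. In bulk samples, fewer cells of a type and less RNA per cell cannot be told apart.

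Groups that did not overlap were also few. The 3 CPM values labelled Het and the 3 labelled KO did not overlap for 2 of 35 members (5.71%), Herpud1 lower and Ssr3 higher, against 10.7% of all genes tested. KO stood on the same side of Het in all 3 same-numbered pairs of libraries for 13 members (37.1%), against 31.2% of all genes. Of these, 8 were higher (Canx, Hyou1, Ern1, Atf6, Creb3l1, Chac1, Ppp1r15a and Ssr3) and 5 lower (Sdf2l1, Manf, Creld2, Herpud1 and Creb3l2). They include 5 chaperones and cofactors, 4 sensors and factors, and no disulfide isomerase.

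The summed level of the 36 members was 12961, 11507 and 13520 CPM in Het replicates 0, 1 and 2 and 14309, 10734 and 12959 CPM in KO replicates 0, 1 and 2. The groups had almost the same mean, 12663 ± 1039 CPM for Het and 12667 ± 1805 CPM for KO (SD, n = 3 each). The members together took 1.12% to 1.35% of a library's counts.

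**Figure D1:**
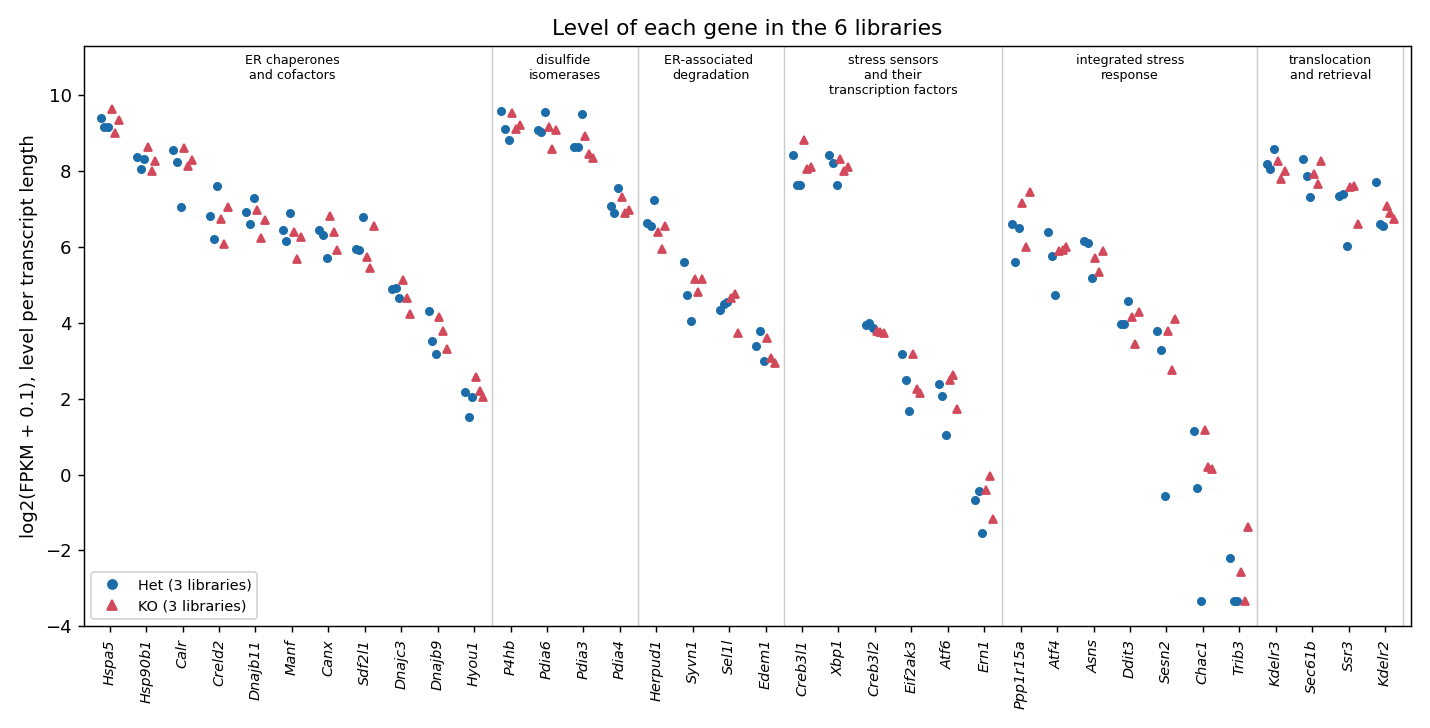
Level of the 36 members as log2(FPKM + 0.1) of the deposited values, by role, with each of the 3 libraries labelled Het as a circle and each of the 3 labelled KO as a triangle. Mean levels run from 0.0787 FPKM for Trib3 to 632 FPKM for Hspa5, and the points of both labels intermingle for nearly all members.

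Levels between genes were compared per length, on the deposited FPKM (fragments scaled by the authors to transcript length and library size). The members spanned from Hspa5 at 632 FPKM to Trib3 at 0.0787 FPKM, as the plot of levels by role shows. Hspa5, the Hsp70 chaperone BiP of the ER lumen, and P4hb, the disulfide isomerase that is also the beta subunit of collagen prolyl 4-hydroxylase, at 610 FPKM, stood at the top and overlapped between libraries. The isomerases Pdia6 at 553 FPKM and Pdia3 at 448 FPKM followed. Next came the Hsp90 chaperone Hsp90b1 (GRP94) at 313 FPKM, the lectin chaperone Calr at 298 FPKM, the transcription factor gene Creb3l1 at 290 FPKM, the retrieval receptor Kdelr3 at 287 FPKM and Xbp1 at 282 FPKM. The last 5 of these differ by less than their spread over libraries. In the middle range were Ssr3 at 146 FPKM, Ppp1r15a at 103 FPKM, Herpud1 at 97.3 FPKM, Manf at 81.6 FPKM, Atf4 at 58.1 FPKM, Asns at 55.0 FPKM and Syvn1 at 31.7 FPKM. Lower still were Sesn2 at 10.2 FPKM, Edem1 at 9.998 FPKM, the chaperone Hyou1 at 4.26 FPKM and Chac1 at 1.17 FPKM. The sensor genes were low: Eif2ak3 was at 5.93 FPKM, Atf6 at 4.35 FPKM and Ern1 at 0.549 FPKM.

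Among the 11 chaperones and cofactors, none rose or fell by the test, with 6 fitted higher and 5 lower and a median log2 fold change of 0.07 (0.03 without Het replicate 2). Hspa5 was at 1718, 1687 and 1651 CPM in Het and 2072, 1474 and 2017 CPM in KO. KO replicate 1 lay below all Het libraries and the other two KO libraries above them, so the groups overlapped. Its log2 fold change was 0.14 with a 95% interval of -0.32 to 0.60, and an exact two-sided permutation test gave p = 0.4, where 0.1 is the smallest that 3 against 3 libraries allow. Hspa5 lies at chr2:34771970-34777547 on the plus strand of mm10.

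Hyou1, an Hsp110-type chaperone that exchanges nucleotide on BiP, was at 20.0, 14.0 and 17.1 CPM in Het and 26.8, 22.7 and 17.2 CPM in KO. KO replicate 2 fell inside the Het range, and the log2 fold change was 0.38 (SE 0.27). Manf, a small ER protein that binds BiP and can be secreted, was at 188, 160 and 305 CPM in Het and 183, 117 and 195 CPM in KO. Het replicate 2 was far above the rest, and without it the log2 fold change of Manf moved from -0.40 to -0.08.

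The other chaperones overlapped between groups. Calnexin, Canx, the membrane lectin that holds new glycoproteins, was at 368 to 390 CPM in Het and 390 to 499 CPM in KO (79.7 FPKM, log2 fold change 0.23). Hsp90b1 was at 942 to 1106 CPM in Het and 893 to 1192 CPM in KO. Calr was at 729, 691 and 268 CPM in Het and 777, 632 and 682 CPM in KO. Het replicate 2 held less than any other library, and without it the log2 fold change of Calr was -0.02 in place of 0.31. The J-domain cochaperones that load clients onto BiP were at 27.2 FPKM (Dnajc3), 13.6 FPKM (Dnajb9) and 114 FPKM (Dnajb11), with log2 fold changes of -0.15, 0.07 and -0.29, which without Het replicate 2 were -0.01, 0.13 and -0.07. Sdf2l1, a partner of Dnajb11, and Creld2, a secreted ER stress protein, were at 70.4 and 115 FPKM, with log2 fold changes of -0.30 and -0.29. Without that library these were -0.05 and 0.03.

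Promoters of the chaperone genes are known for the ER stress response element (ERSE), which NF-Y and ATF6 or XBP1 bind. It was searched as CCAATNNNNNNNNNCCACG on both strands, in RefSeq promoters of GRCm38.p6 that run from 250 bases before to 50 after a gene's start. Of the members, 31 matched an entry, and Manf, Atf6, Kdelr2, Creb3l1 and Hyou1 did not. The element was found in 8 of the 31 (25.8%), against 39 of all 32851 promoters (0.119%). The 8 are Hspa5, Hsp90b1, Calr, Canx, Dnajc3, Creld2, Pdia6 and Syvn1. Matches are given in capitals with 12 bases on each side, since 6 of the 8 genes are chaperones or cofactors. The promoters of the chaperone and cofactor genes Dnajb9, Dnajb11 and Sdf2l1 did not hold these letters in this window. On the opposite strand the match reads as CGTGG first and ATTGG last, as in Calr and Creld2.
Hspa5, chr2:34772013-34772055: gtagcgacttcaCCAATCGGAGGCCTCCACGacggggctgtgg
Hsp90b1, chr10:86705626-86705668: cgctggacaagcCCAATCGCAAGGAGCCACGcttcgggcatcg
Hsp90b1, chr10:86705521-86705563: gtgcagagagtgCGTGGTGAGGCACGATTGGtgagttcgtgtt
Calr, chr8:84847063-84847105: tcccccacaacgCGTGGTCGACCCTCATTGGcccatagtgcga
Canx, chr11:50325788-50325830: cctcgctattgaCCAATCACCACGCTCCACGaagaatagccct
Dnajc3, chr14:118937815-118937857: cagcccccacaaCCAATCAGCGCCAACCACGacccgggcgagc
Creld2, chr15:88819508-88819550: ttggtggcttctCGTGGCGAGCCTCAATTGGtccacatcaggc
Pdia6, chr12:17266479-17266521: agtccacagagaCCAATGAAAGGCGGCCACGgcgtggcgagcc
Syvn1, chr19:6046520-6046562: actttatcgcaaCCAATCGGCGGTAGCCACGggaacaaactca
Each is written 5′ to 3′ on the strand of its gene, which is the minus strand for Hsp90b1, Calr and Canx and the plus strand for the others. Counted from the start that the RefSeq table uses, which for Hspa5 lies inside the longer annotated gene, the capitals begin 65 bases before the start of Hspa5, 44 before that of Syvn1 and 98 before that of Pdia6. The Hspa5 promoter is given whole, as that of the member with the highest level (chr2:34771840-34772139, plus strand).
Hspa5: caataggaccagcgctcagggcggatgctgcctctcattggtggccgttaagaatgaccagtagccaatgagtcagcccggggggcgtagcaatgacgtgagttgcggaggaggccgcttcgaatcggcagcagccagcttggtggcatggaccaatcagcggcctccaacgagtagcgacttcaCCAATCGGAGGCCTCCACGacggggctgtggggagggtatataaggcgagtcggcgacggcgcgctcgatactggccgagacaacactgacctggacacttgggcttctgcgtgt
The 8 genes with the element did not move one way: 5 were fitted higher and 3 lower, with a median log2 fold change of 0.09 and 0 called. Within 1 library they also parted, since in Het replicate 2 Calr and Syvn1 were the lowest of the 6 libraries while Pdia6, Creld2 and Dnajc3 were the highest. A match describes these letters only and does not show whether the site is bound.

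The 4 disulfide isomerases form and rearrange the disulfide bonds of new proteins, and none changed by the test. Their median log2 fold change was -0.19, and 0.04 without Het replicate 2. P4hb was at 1924, 1524 and 1191 CPM in Het and 1913, 1536 and 1586 CPM in KO. Its log2 fold change was 0.12, or -0.03 without Het replicate 2. Pdia3, which works with calnexin and calreticulin on glycoproteins, was at 1059, 1110 and 2600 CPM in Het and 1295, 969 and 1203 CPM in KO. The value of Het replicate 2 was the one far from the rest, and the log2 fold change of -0.46 became 0.09 without it. Pdia6, which acts on BiP clients and on IRE1, was at 1117, 1158 and 1821 CPM in Het and 1199, 847 and 1326 CPM in KO, a log2 fold change of -0.28 (SE 0.27). Without Het replicate 2 that of Pdia6 was -0.02. Pdia4 was at 331 to 511 CPM in Het and 330 to 412 CPM in KO (141 FPKM). Pdia3, Pdia4 and Pdia6 all had their highest value in Het replicate 2, while P4hb had its lowest there.

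The 4 genes of ER-associated degradation had a median log2 fold change of -0.11 (-0.21 without Het replicate 2) and included 1 whose groups did not overlap. Herpud1, an ER membrane protein that organises the degradation complex, was at 180, 163 and 256 CPM in Het and 153, 109 and 153 CPM in KO. All 3 KO libraries lay below all 3 Het libraries, and the nearest were Het replicate 1 and KO replicate 0. The log2 fold change was -0.53 with a 95% interval of -1.06 to 0.0070, and edgeR's adjusted p was 0.976. By exact permutation the two-sided p was 0.1, the smallest possible, which the lack of overlap fixes and which adds nothing to it. Without Het replicate 2 the log2 fold change was -0.30. Herpud1 lies at chr8:94386438-94395377 on the plus strand.

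Edem1, a mannosidase-like protein that marks misfolded glycoproteins, was at 61.3, 75.2 and 67.0 CPM in Het and 71.0, 46.4 and 63.2 CPM in KO, and the groups overlapped. Sel1l and Syvn1 encode the scaffold and the ubiquitin ligase (HRD1) of the same complex. Sel1l was at 129 to 190 CPM in Het and 108 to 174 CPM in KO (21.9 FPKM). Syvn1 was at 156, 81.4 and 48.6 CPM in Het and 116, 88.2 and 94.8 CPM in KO, and was lowest in Het replicate 2, where Sel1l was highest.

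Herpud1 and Dnajb11 carried the shorter element ERSE-II, searched as ATTGGNCCACG, which is in 12 of 32851 promoters (0.0365%). Its CCACG piece is the same as that of ERSE. Both sequences are shown because Herpud1 is the member with the lowest fitted fold change, with the match in capitals on the plus strand. Both genes were highest in Het replicate 2 and lowest in KO replicate 1, as were 8 other members.
Herpud1, chr8:94386365-94386399: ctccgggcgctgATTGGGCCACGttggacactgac
Dnajb11, chr16:22857840-22857874: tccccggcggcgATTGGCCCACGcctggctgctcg
Dnajb11 was at 231, 210 and 332 CPM in Het and 241, 162 and 228 CPM in KO, and unlike Herpud1 its groups overlapped.

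The 6 stress sensors and transcription factors had a median log2 fold change of 0.23, with 5 fitted higher and 1 lower, and none changed by the test. Without Het replicate 2 the median was -0.02, with 3 higher and 3 lower. Atf6 was at 40.4, 31.5 and 21.5 CPM in Het and 44.1, 47.1 and 34.8 CPM in KO. The lowest KO library lay below the highest Het library, and the log2 fold change was 0.43 (SE 0.27), or 0.23 without Het replicate 2. Creb3l1 encodes OASIS, a membrane-bound factor of the same type as ATF6 that acts on collagen genes in bone. It was at 805, 478 and 398 CPM in Het and 1084, 638 and 529 CPM in KO. Each KO library was above the Het library of the same number, yet Het replicate 0 exceeded KO replicates 1 and 2, and the log2 fold change was 0.42 (SE 0.34), or 0.23 without Het replicate 2.

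The collagen gene Col1a1, a marker of dental mesenchyme, stood in the same order within each label as Creb3l1, at 28042, 21965 and 9738 CPM in Het and 41011, 30012 and 21244 CPM in KO. Col1a2 did so in KO but not in Het, where it was at 11919, 8424 and 8794 CPM. Col1a1 and Col1a2 made up most of the summed level of the 8 mesenchyme markers, which was 41747, 32132 and 20589 CPM in Het and 59537, 42000 and 30744 CPM in KO. Other markers of that list ran differently, and Pdgfra, Twist1, Msx1 and Postn were fitted lower in KO, with log2 fold changes from -0.53 to -0.38. Het and KO did not overlap for 1 of the 8, Twist1, and none passed edgeR's test. The summed level of 8 osteoblast markers was 4777 to 11843 CPM in Het and 12588 to 21080 CPM in KO, with no overlap, and most of it was Ibsp. Of these 8, edgeR called 0 and DESeq2 called Dmp1 (adjusted p 0.00143) and Spp1 (adjusted p 0.0222), both higher. The part of either marker list in the level of Creb3l1 was not tested.

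Creb3l2, a relative of Creb3l1, was at 47.5 to 56.1 CPM in Het and 41.7 to 47.7 CPM in KO (14.3 FPKM). Ern1 was the least abundant sensor, at 0.955 to 2.90 CPM in Het and 1.31 to 3.93 CPM in KO. Eif2ak3 was at 14.6 to 39.5 CPM in Het and 20.6 to 40.5 CPM in KO. Xbp1 was at 582, 515 and 383 CPM in Het and 549, 448 and 520 CPM in KO. Its log2 fold change was 0.04, or -0.11 without Het replicate 2. Gene counts do not separate the spliced from the unspliced form of Xbp1, nor the cleaved from the whole form of ATF6, so the activity of either pathway was not measured here.

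The 7 genes of the integrated stress response, the arm downstream of PERK and related kinases, had a median ratio of highest to lowest library of 2.83 among those tested, the widest of the 6 roles. Of them, 6 were tested, with a median log2 fold change of 0.31, 4 fitted higher and 2 lower, and 0 called. Without Het replicate 2 the median was -0.10, with 1 higher, Ppp1r15a, and 5 lower. Ppp1r15a (GADD34), which directs the phosphatase that ends the block on translation, was at 223, 137 and 174 CPM in Het and 341, 177 and 346 CPM in KO. KO replicates 0 and 2 were above all Het libraries and KO replicate 1 was within their range. The log2 fold change was 0.69 with a 95% interval of 0.023 to 1.36, with an unadjusted p of 0.0440 and an adjusted p of 0.976 in edgeR. By exact permutation the two-sided p was 0.2. Leaving out Het replicate 2 left the log2 fold change at 0.68. Ppp1r15a lies at chr7:45522916-45526268 on the minus strand.

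Ppp1r15a is also known as an early response gene. The summed level of 9 genes of the dissociation response, which holds early response and heat shock genes, was 13728, 8858 and 12944 CPM in Het and 18365, 12434 and 18112 CPM in KO. As with Ppp1r15a, KO replicates 0 and 2 had the highest sums and Het replicate 1 the lowest. None of the 9 passed edgeR's test, and Het and KO did not overlap for 1, Jun (log2 fold change 0.62). Fos, Fosb, Junb, Egr1 and Ier2 were also fitted higher, while Dusp1, Hspa1a and Hspa1b were highest in Het replicate 2 and fitted lower, at -0.08, -0.41 and -0.34. The part of these genes in the level of Ppp1r15a was not tested.

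**Figure D2:**
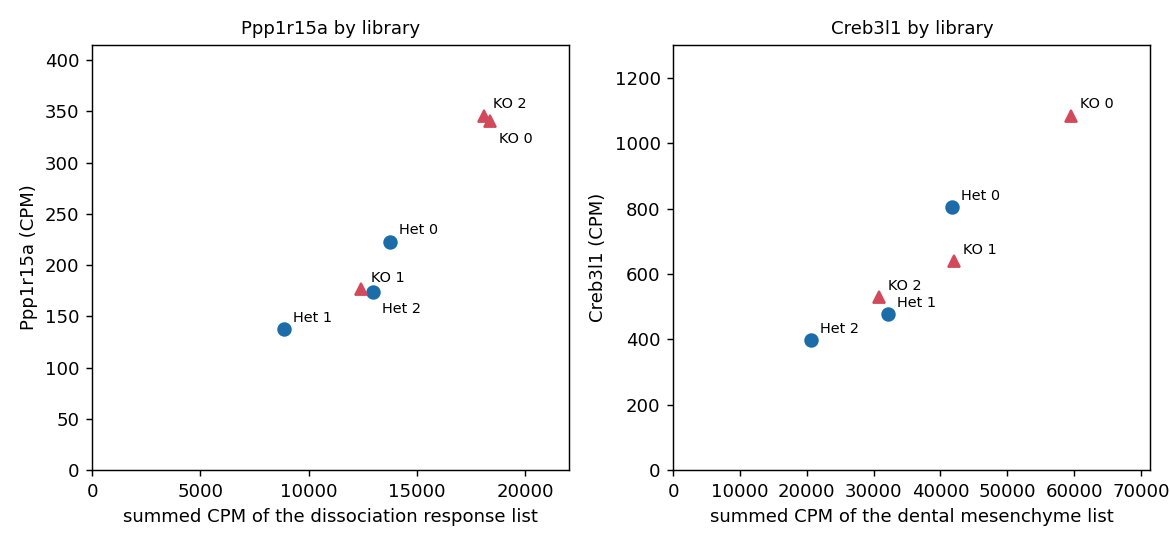
Left to right, levels of Ppp1r15a and Creb3l1 in CPM against the summed CPM of the dissociation response and dental mesenchyme markers in each of the 6 libraries (circles Het, triangles KO). KO replicates 0 and 2 lie at the upper right for Ppp1r15a, and KO replicate 0 and Het replicate 0 are the highest libraries for Creb3l1.

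Asns, asparagine synthetase and a target of ATF4, was at 134, 132 and 75.1 CPM in Het and 98.7, 78.3 and 127 CPM in KO, and its log2 fold change was -0.17 (SE 0.27), or -0.39 without Het replicate 2. Atf4 itself was at 129, 85.0 and 41.0 CPM in Het and 92.8, 95.5 and 96.3 CPM in KO. The 3 KO values lay close together, inside the range of the Het values. Ddit3 (CHOP), a factor tied to cell death under stress, was at 10.9 to 14.1 CPM in Het and 9.41 to 13.1 CPM in KO (17.1 FPKM). GENCODE M21 holds overlapping genes with that symbol. The annotation behind the deposited counts is not given, so whether the count of Ddit3 is affected is not known.

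In other members of this arm Het replicate 2 was at or near 0. Sesn2 (sestrin 2), which restrains growth signalling under stress, was at 34.9, 25.1 and 1.15 CPM in Het and 35.4, 17.5 and 32.1 CPM in KO. Het replicate 2 held 41 counts of it, and the next lowest library was KO replicate 1. Chac1, an enzyme that degrades glutathione, was at 3.14, 1.03 and 0 CPM in Het and 3.23, 1.59 and 1.26 CPM in KO. The count of 0 in Het replicate 2 allows up to 0.0843 CPM, for 3 counts and counting error only. Without that library the log2 fold changes of Sesn2 and Chac1 were -0.08 and -0.03 in place of 0.47 and 0.54. Trib3, a pseudokinase induced by ATF4 and CHOP, had 14, 0 and 0 counts in Het and 8, 0 and 23 counts in KO and was not tested.

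The element bound by ATF4 with its C/EBP partners (CARE) was searched as TGATGNAA on both strands. It was found in 4 of 31 members (12.9%), Herpud1, Trib3, Asns and Chac1, against 3.97% of all promoters. Those of Asns and Chac1 are shown, with the match in capitals on the strand of the gene, because both are classical ATF4 targets.
Asns, chr6:7693213-7693244: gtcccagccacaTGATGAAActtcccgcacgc
Chac1, chr2:119351037-119351068: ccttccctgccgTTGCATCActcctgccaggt
Asns lies on the minus strand and Chac1 on the plus strand, where the match is read from the opposite strand. Both were lowest in Het replicate 2, at 75.1 and 0 CPM, together with Atf4. In the libraries labelled KO, Asns was highest in replicate 2 and Chac1 in replicate 0. Their log2 fold changes were -0.17 (SE 0.27) and 0.54 (SE 1.39), and both were fitted lower without Het replicate 2.

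The 4 genes of translocation and retrieval had a median log2 fold change of -0.06 (-0.17 without Het replicate 2), and 1 had groups that did not overlap. Ssr3, a subunit of the translocon-associated TRAP complex that helps nascent chains through Sec61, was at 464, 437 and 329 CPM in Het and 543, 516 and 492 CPM in KO. All KO libraries were above all Het libraries. The log2 fold change was 0.33 (SE 0.19), or 0.20 without Het replicate 2, and edgeR's adjusted p was 0.976. The exact permutation p was 0.1, again fixed by the lack of overlap. On the deposited FPKM the groups overlapped, with 161, 167 and 65.1 FPKM in Het and 192, 193 and 97.7 FPKM in KO. Ssr3 lies at chr3:65379655-65392623 on the minus strand.

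Kdelr3 and Kdelr2 are receptors that return escaped chaperones to the ER. Kdelr3 was at 385, 336 and 488 CPM in Het and 411, 285 and 310 CPM in KO, a log2 fold change of -0.26 (SE 0.22), or -0.10 without Het replicate 2. Kdelr2 was at 161 to 373 CPM in Het and 199 to 239 CPM in KO (127 FPKM). Sec61b, a subunit of the channel, was at 48.4 to 115 CPM in Het and 71.6 to 90.6 CPM in KO (244 FPKM). Its log2 fold change was 0.02, or -0.24 without Het replicate 2. Kdelr3 carried the sequence TGACGTGG, read from the opposite strand, which is known as the unfolded protein response element and is in 0.676% of promoters. Its complement shares the letters CCACG with ERSE.

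**Figure D3:**
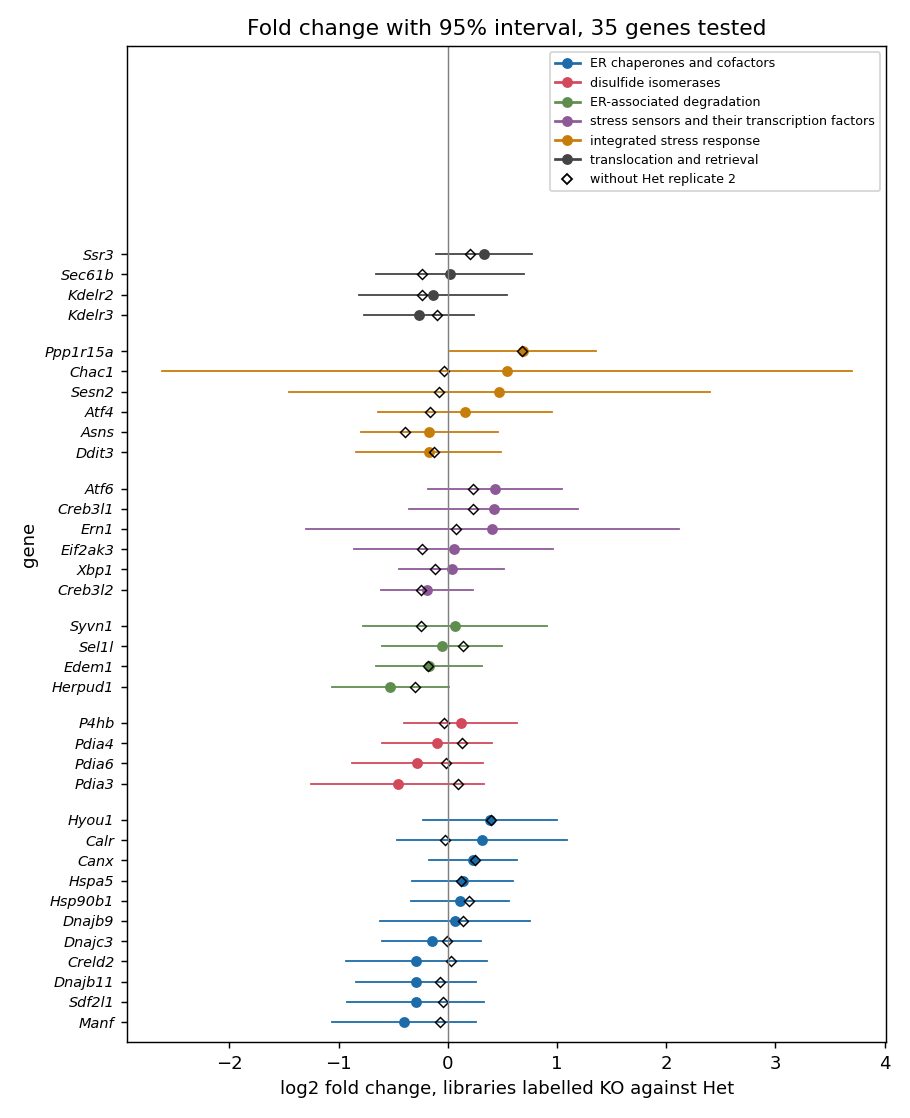
Log2 fold change of libraries labelled KO against Het for the 35 members tested, by role, with 95% intervals from edgeR's quasi-likelihood fit as lines and the value without Het replicate 2 as an open diamond. All intervals but that of Ppp1r15a (0.023 to 1.36) include 0.

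**Figure D4:**
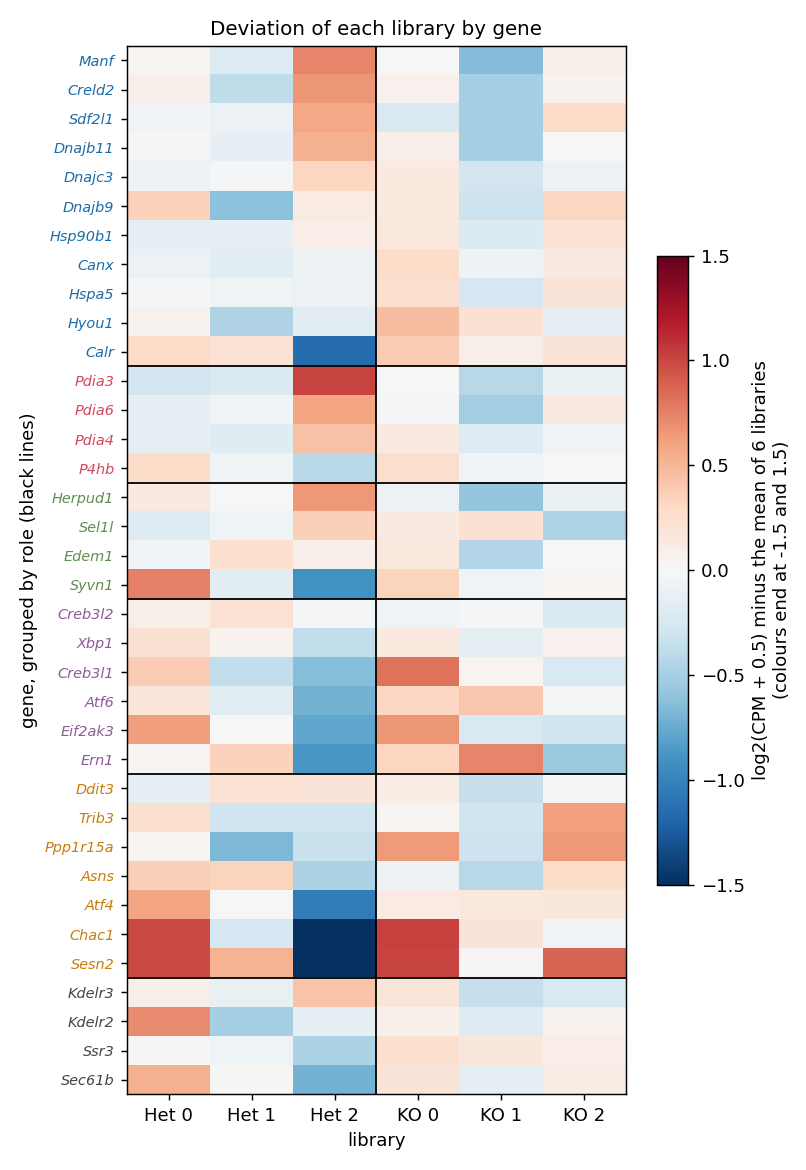
Deviation of each member's log2(CPM + 0.5) from its mean over the 6 libraries, with members by role in rows and libraries in columns (red above, blue below, colours ending at 1.5 either way). Het replicate 2 holds high values, as for Pdia3, and the lowest ones, for Sesn2 and Chac1, which were high in Het replicate 0 and KO replicate 0.

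Certain libraries held many of the extreme values, as the heatmap by role shows. Het replicate 2 was the highest library for 11 of 36 members (30.6%) and the lowest for 14 (38.9%), against 28.0% and 30.2% of all genes tested. KO replicate 1 was the lowest for 14 members (38.9%), against 18.3% of all genes, and the highest for 2. Het replicate 0 and KO replicate 0 were lowest for 0 members, against 13.5% and 9.75% of all genes. The median ratio of the highest to the lowest library was 2.13 for the members and 2.15 for all genes.

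In Het replicate 2 members of 1 role parted from each other in several roles. It was the highest library for 5 of 11 chaperones and cofactors and the lowest for 1, Calr, and the highest for 3 of 4 isomerases and the lowest for P4hb. Among degradation genes, Herpud1 and Sel1l were highest there and Syvn1 lowest. It was the lowest for 5 of 6 sensors and factors and 4 of 7 integrated stress genes, and the highest for 0 of either. Among the members high there, Pdia3 was at 2600 CPM against 969 to 1295 in the other 5 libraries, Manf at 305 against 117 to 195, and Creld2 at 207 against 92.2 to 138. Among those low there, Atf4 was at 41.0 CPM against 85.0 to 129, Atf6 at 21.5 against 31.5 to 47.1, and Sesn2 at 1.15 against 17.5 to 35.4. Without this library, 13 of 35 members changed the sign of their fitted change, and the median log2 fold change of the members was -0.03. The 13 are Calr, Creld2, P4hb, Pdia3, Pdia4, Sel1l, Syvn1, Eif2ak3, Xbp1, Atf4, Chac1, Sesn2 and Sec61b. The 4 members with the smallest unadjusted p (Ppp1r15a, Herpud1, Ssr3 and Atf6) kept their sign. They were picked by p from the fit that includes this library, which makes a kept sign likely.

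Transcript composition moved with some of the deviations of a library from the other 5, given here as Spearman correlations across the 35 members and across 12651 genes with a GENCODE transcript. For GC content they were 0.47 and 0.15 in Het replicate 0, 0.22 and 0.14 in KO replicate 0, and -0.28 and -0.09 in Het replicate 2. For transcript length they were 0.43 and 0.36 in KO replicate 1, 0.37 and 0.07 in KO replicate 0, and -0.30 and -0.22 in KO replicate 2. These correlations run across genes that share a library and are descriptions. The part of GC content and length in the members' values was not tested.

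Markers of other cells that the sort could hold were summed in the same way. The summed level of 5 measured plasma and B cell markers was 2.03 to 5.76 CPM in Het and 3.43 to 14.3 CPM in KO. Igj, a plasma cell marker, was at or near 0. Pou2af1 did not overlap, at 0 to 0.0278 CPM in Het, under the floor of 3 counts, and 0.295 to 1.25 CPM in KO. Its log2 fold change was 6.06 (SE 1.64). Cd79a and Cd79b were fitted higher (log2 fold changes 1.30 and 1.33) and Ms4a1 lower (-0.41), and edgeR called none of this list. That of 7 macrophage and leukocyte markers was 19.0 to 85.0 CPM and 25.7 to 132 CPM. Enamel epithelium markers, a secretory lineage next to the follicle, summed to 4868 to 8091 CPM in Het and 4686 to 10155 CPM in KO. The sum of 4 pericyte and smooth muscle markers, nearly all of it Acta2, was 796 to 898 CPM in Het and 568 to 681 CPM in KO, and Acta2 alone of the 4 did not overlap. Cspg4 and Rgs5 of that list were fitted higher. The sum of 5 endothelial markers was 8.91 to 15.1 CPM in Het and 5.25 to 8.02 CPM in KO, with no overlap for Kdr and Pecam1, both lower, while Tek and Emcn were fitted higher. None of these 9 genes passed edgeR's test. The sums of neutrophil markers (4.28 to 253 CPM in Het, 86.5 to 287 CPM in KO), Schwann cell markers (6.16 to 18.6 and 11.6 to 21.5 CPM) and erythroid markers (9.15 to 21.3 and 12.8 to 43.7 CPM) overlapped. The neutrophil gene Elane was at 0.0965, 66.2 and 33.8 CPM in Het and 0.0381 to 0.0985 CPM in KO. It was not tested in edgeR and was called lower by DESeq2 (adjusted p 0.000208). The part of these lists in the members' levels was not tested.

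None of the other genes of the pathway passed the test. Of 114 such genes with a row, 113 were tested, 60 were fitted higher and 53 lower, with a median log2 fold change of 0.01 and 0 called. Their groups did not overlap for 5 (4.42%), again beside 10.7% of all genes. Among other folding factors (7 higher, 11 lower), Pdia5 and Txndc12 had the smallest p, with log2 fold changes of -0.43 and -0.39. Among other degradation genes (8 higher, 9 lower) these were Derl2, part of the retrotranslocation channel, at -0.54, and the ubiquitin ligase March6 at 0.42.

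Among other sensors and processing genes, 7 were fitted higher and 2 lower. Atf6b, a paralogue of Atf6, had a log2 fold change of 0.46 and Mbtps1, the site-1 protease that cleaves ATF6, one of 0.32. Het replicate 2 was the lowest library for both genes. Among other integrated stress targets, 23 were fitted higher and 7 lower, with a median of 0.11. The counts of both lists include Het replicate 2 and are not given without it. Psat1, of serine synthesis, was at 51.2, 37.4 and 51.8 CPM in Het and 98.3, 61.3 and 64.6 CPM in KO, without overlap, and its log2 fold change was 0.67 with an edgeR adjusted p of 0.976. Ppp1r15b, the constitutive relative of Ppp1r15a, had a log2 fold change of 0.47, also without overlap in CPM. Its groups overlapped on the deposited FPKM, and Het replicate 2 was its lowest library. In this list 3 of 30 genes tested (10%) did not overlap, beside 10.7% of all genes. Among other translocation and exit genes (15 higher, 24 lower), Srp72, a subunit of the signal recognition particle, was at 72.0 to 83.2 CPM in Het and 88.4 to 117 CPM in KO, and Lman1, a cargo receptor, had a log2 fold change of 0.26.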

How the data were processed

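Per the labels' protocols, RNA of sorted cells (PicoPure) was amplified as SMART-Seq cDNA and made into Nextera XT libraries. The submitters' processing notes list mm10, TopHat2 2.0.13, Bowtie2 2.2.1, HTSeq, Cufflinks, Cuffdiff and DESeq2 without their roles. The authors deposited raw counts per gene symbol, a table of estimated counts (rounded here, used as an alternative) and FPKM values. Annotation and strand setting are not given in these sources.

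Counts were fitted in R 4.3.3 with edgeR 4.0.16 (quasi-likelihood, TMM, default filter), two-sided, with Benjamini-Hochberg adjustment over all 14632 genes tested. limma 3.58.1 and DESeq2 1.42.0 served as alternatives. Log2 levels used a pseudocount of 0.5 CPM, and FPKM fits used 1 or 0.1. The scripts were tested on simulated data. Groups came from sample titles. Same-numbered libraries deviated together from their group means, though weakly (correlations of 0.22, 0.12 and 0.11, other pairs -0.13 to -0.01). Counts by same-numbered pair are therefore also given, but no label names a pairing. Deviations from a group mean cancel within the group. Positive values for same-numbered pairs thus force negative ones among the others, and that contrast adds nothing. The main fit was unpaired, and the replicate number was a block only in alternatives.

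The members and lists were chosen with earlier results of these data known. Every member is named. Full values are given for members whose groups do not overlap and, per role, for the 2 with the smallest unadjusted p and the 1 with the highest FPKM. Those of Calr, Dnajb11, Syvn1, Xbp1, Atf4, Sesn2, Chac1 and Trib3 were added after their values were seen. Of each other list, the 2 with the smallest p are named. Promoters are RefSeq (GRCm38.p6) and positions GENCODE M21 (mm10).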

Additional observations from a re-analysis of the deposited data

How the results depend on the processing

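The count of members called stayed at 0 under every alternative run, as did that of the other pathway genes. Over all genes, 1 gene was called in place of 0 with a stricter filter (CPM of 1), limma-voom with quality weights, edgeR's newer quasi-likelihood method, the 3 FPKM fits and an adjusted p of 0.1, 87 with DESeq2, and 0 to 1 with a library left out. With the replicate number as a block, edgeR called 0 genes and 0 members, so the pairing changed no call of a member. Chosen after seeing the data, DESeq2 with the replicate block called 187 genes, with Ppp1r15a at an adjusted p of 0.0823 (0.0823 to 0.9999 as the smallest member value over all alternatives), and DESeq2 without Het replicate 2 called 175. The members' median log2 fold change stayed between -0.04 and 0.16. Signs turned for 13 members without Het replicate 2, 7 with voom weights, and 4 or fewer with any other alternative except DESeq2 without that library, again 13. With 3 libraries per group and a median standard error of 0.27, changes of the size seen here could not be told from the spread.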
